A study of Mus musculus with 3 samples.

Results

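Streak mesoderm-like cells in mouse blastoids, which are stem-cell aggregates that resemble a blastocyst, were picked out as barcodes that carried transcripts of 2 primitive streak genes together. A barcode is the label shared by the transcripts of 1 droplet, ideally 1 cell, and a UMI marks 1 captured transcript. A barcode had to hold 3000 UMIs or more, of which no more than 20% could be mitochondrial. A streak barcode had at least 1 UMI of T and at least 1 of Fgf8, and its summed level of T, Fgf8, Mesp1 and Rspo3 was at least 300 CPM (the UMIs of a gene per 1000000 UMIs of the barcode). It also held under 100 CPM of the endoderm factors Gata6, Sox17 and Gata4 together, and under 1000 CPM of the yolk sac endoderm transcripts Ttr, Rbp4, Apoa1 and Apoa2 together. The rule found 133 streak barcodes among the 5963 that passed the filters, out of 18388 deposited barcodes.

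The study made 1 single-cell library from each of 3 kinds of blastoid, named Type I, Type II and Type III, and the labels do not say what sets the types apart. All 3 came from E14 mouse embryonic stem cells described as Nr1h2-activated, which were kept with LIF at 1000 U/mL and 10 µM T0901317, an agonist of the nuclear receptors Nr1h3 and Nr1h2. In each case 5 cells per microwell were aggregated in medium that held 12.5 ng/mL rhFGF4, 0.5 µg/mL heparin, 3 µM CHIR99021 (an activator of Wnt signalling through GSK3) and 2 µM Y-27632 (a kinase inhibitor that helps dissociated stem cells survive), and that was supplemented with 5 ng/mL BMP4 and 0.5 µM A83-01 (an inhibitor of the Nodal and activin receptors). Blastoids were picked by hand on day 5 and digested for 30 min, and each type has 1 library. Every barcode described here therefore shares the same cell line, agonist, growth factors and inhibitors, and the differences below lie between cells of the same libraries.

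The primitive streak forms at the posterior side of the epiblast, where epithelial cells lose contact with their neighbours, move out and become mesoderm and definitive endoderm. Wnt3 and Nodal from the epiblast, with BMP4 from the neighbouring extraembryonic ectoderm, start the process and switch on T (brachyury), the T-box factor that marks the streak. Fgf8 is the FGF that streak cells need to migrate, Mesp1 marks the earliest mesoderm that leaves the streak, including precursors of the heart, and Rspo3 is a secreted protein that strengthens Wnt signalling.

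The libraries held 90126648, 106445641 and 25443474 UMIs over 6813, 9265 and 2310 barcodes in Types I, II and III. Streak barcodes had median totals of 18806, 37951.5 and 83643 UMIs. Because a deeper barcode shows a low gene more often, each streak barcode was set beside the 5 other barcodes of its library with the nearest UMI total, 665 in all (190, 450 and 25), with medians of 18733.5, 37892.5 and 84155 UMIs. Libraries shared some barcode sequences, 155 between Types I and II, 209 between Types I and III and 151 between Types II and III. Sequences of streak barcodes were shared in 3 cases between Types I and III and in 2 between Types II and III, and none was a streak barcode in both libraries. No doublet caller was used. The closing section names the genes whose calls change when the deepest 5% of passing barcodes are left out. That setting kept 37 of the 38 streak barcodes of Type I and all 90 of Type II. It therefore cannot stand in for a doublet check.

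The streak barcodes made up 1.68% of the passing barcodes of Type I (38 of 2258; exact 95% binomial interval 1.19 to 2.30%). Their share was 2.82% in Type II (90 of 3192; 2.27 to 3.45%) and 0.975% in Type III (5 of 513; 0.317 to 2.26%). The intervals cover counting error only, and with 1 library of each type no test between types was possible. Median depth of all passing barcodes was 27947.5, 24401 and 11407 UMIs in the same order, and among barcodes with at least 10000 UMIs the share was 1.99, 4.02 and 1.10%. Type II thus had the largest share at both depths. The 5 streak barcodes of Type III are given as values and entered no test.

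T lies on mm10 at chr17:8434423-8442496 (plus strand) and chose the barcodes, so its level is a description. The summed streak barcodes held 298, 249.9 and 398 CPM of T in Types I, II and III, and the matched other barcodes held 1.80, 4.20 and 0.648 CPM. Over single streak barcodes T ran from 22.0 to 833 CPM in Type I (median 279), from 15.9 to 989 in Type II (median 178) and from 233 to 668 in Type III (median 287). The ranges of the 3 libraries overlapped, and T rested on a single UMI in 27 of the 133.

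Fgf8, at chr19:45736798-45742915 (minus strand), stood at 263, 549.9 and 355 CPM in the summed streak barcodes of Types I, II and III. Its per-barcode median was 307 CPM in Type I, 503 in Type II and 233 in Type III, with maxima of 1068, 1508 and 624. Fgf8 was thus higher in Type II than in Type I, in the opposite order to T, with 1 library each and no test. Rspo3 (chr10:29452416-29535867, minus strand) was summed at 269.6, 334 and 121 CPM and was seen in 28 of 38, 68 of 90 and 2 of 5 streak barcodes. Mesp1 (chr7:79792241-79793788, minus strand) was the patchiest of the 4, at 107, 55.0 and 39.1 CPM and in 11, 33 and 1 barcodes. After each barcode was thinned to 3000 UMIs, T remained in 60.5% and 44.4% of the streak barcodes of Types I and II, Fgf8 in 60.5% and 70.0%, Rspo3 in 50.0% and 44.4% and Mesp1 in 13.2% and 14.4%. In 209 visceral endoderm-like barcodes (at least 10000 CPM of Ttr, Rbp4, Apoa1 and Apoa2), which should lack these genes, the thinned share was 0 for T, Mesp1 and Rspo3, where a count of 0 allows up to 1.44%. Fgf8 was seen in 2 of them after thinning (0.957%) and in 6 before (2.87%). Before thinning, T and Rspo3 each had a UMI in 2 of these 209 barcodes (0.957%), whose median depths were 26606.5 UMIs in Type I and 38230 in Type II.

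**Figure D1:**
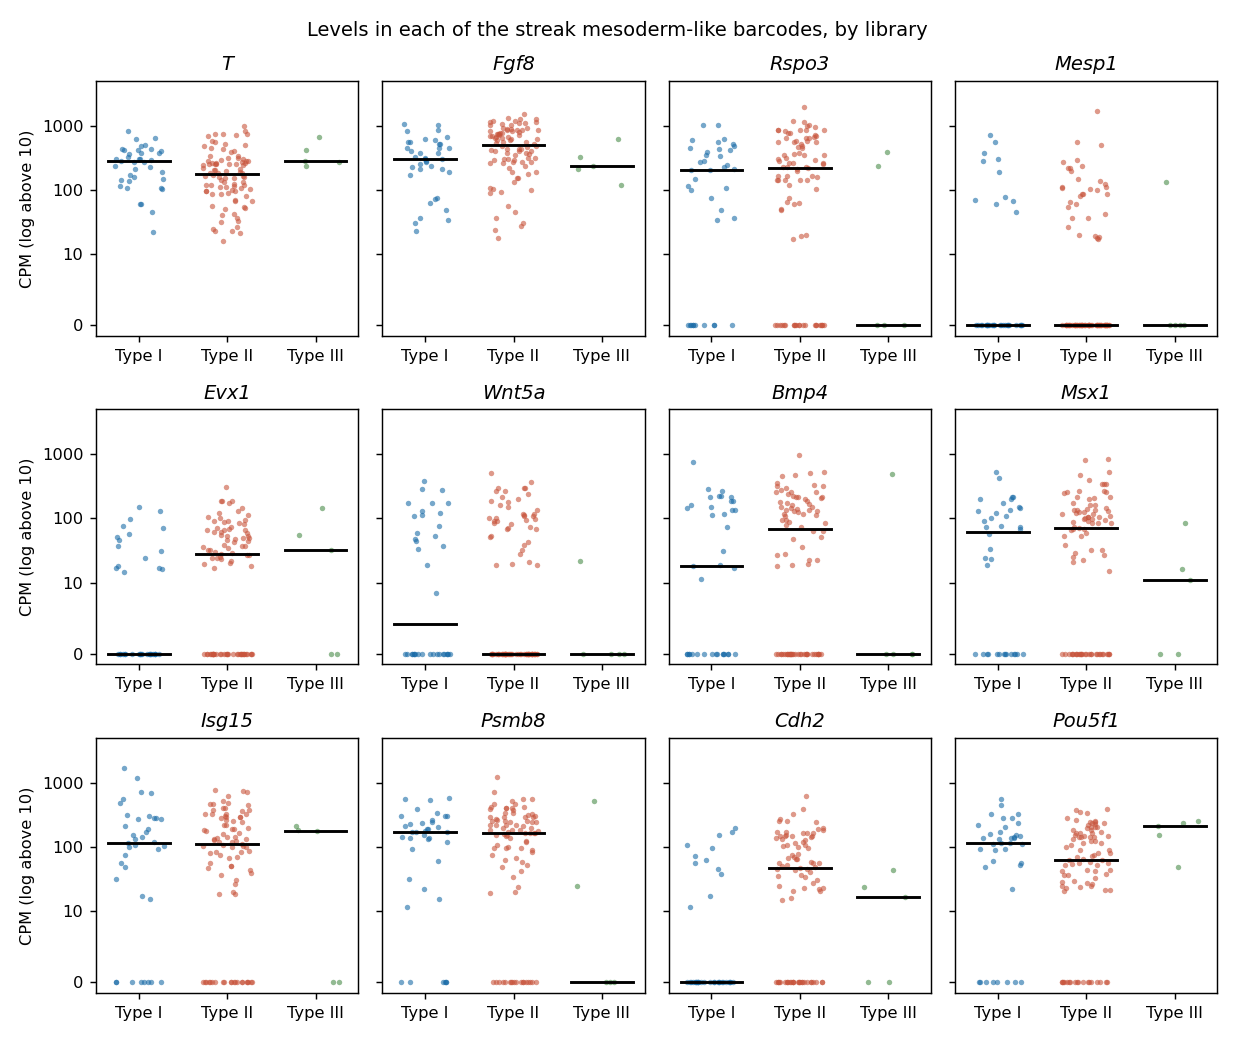
Level of 12 genes in each streak barcode of Types I, II and III (38, 90 and 5 points), in CPM on an axis that is linear up to 10 and logarithmic above. Black bars are medians. T and Fgf8, which chose the barcodes, are above 0 in every point, Rspo3 in most, and Mesp1, Evx1, Wnt5a and Cdh2 are split between barcodes at 0 and barcodes that hold the gene.

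Of the 193 barcodes with both T and Fgf8, 139 reached 300 CPM for the 4 genes, and the endoderm limits removed 6 of these. Barcodes just inside numbered 9, with sums of 300 to 400 CPM, against 10 just outside with 200 to 300 CPM. The lowest sums inside were 344, 306 and 406 CPM in Types I, II and III, and the highest outside were 293, 253 and 299.9 CPM. The median sum inside was 875, 1120 and 641 CPM, so most streak barcodes lay well above the limit.

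The label was checked on 12 streak markers that the rule did not use. Counts of each class were summed within Types I and II and compared with edgeR's quasi-likelihood test, library as a block and Benjamini-Hochberg adjustment over 11126 genes. A gene was called at an adjusted p under 0.05 and a change of at least 2-fold. A log2 fold change below is that of the streak barcodes over the others, with its standard error in parentheses where given. By this rule 17.7% of all genes were called, 6.63% as higher and 11.1% as lower. The p-values measure only the agreement of 2 libraries that are not known to be replicate cultures of one type. Of the 12 markers, Mixl1, Eomes, Snai1, Evx1, Sp5, Wnt3 and Lhx1 were called higher. Cyp26a1, the enzyme that removes retinoic acid in the streak, was measured and not called, at 26.3 and 24.7 CPM against 44.4 and 35.4 CPM. Tbx6, Msgn1, Cdx1 and Wnt3a, which mark the later streak and presomitic mesoderm, were too low for the test, at 0 to 2.78 CPM in the streak barcodes. The label thus held for 7 of the 12 markers, and its presomitic markers were near 0.

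Evx1, a homeobox gene of the posterior streak that the rule did not use, stood at 24.8 and 42.02 CPM in the streak barcodes of Types I and II, at 68.5 CPM in those of Type III, and at 2.41 and 2.41 CPM in the others of Types I and II. All 3 libraries had higher streak values than other values, and the log2 fold change over Types I and II was 3.96 (0.28; adjusted p = 9.25e-12, edgeR quasi-likelihood). Evx1 had a UMI in 75 of 133 streak barcodes, in 6.77% of them after thinning, and in none of the thinned visceral endoderm-like barcodes. Evx1 overlaps the antisense gene Evx1os, and no source used here says whether the counting used strand.

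Of the 30 streak and early mesoderm transcription factors on a list, 20 were abundant enough for the test, and 14 of these rose, 3 fell and 3 were not called. Their median log2 fold change was 1.88, against -0.01 for all genes tested. Mixl1, a homeobox factor of mesendoderm, stood at 19.5 and 5.25 CPM against 0.602 and 0.185 CPM, a log2 fold change of 4.95 (0.56), though only 19 of 133 streak barcodes held a UMI of it. Eomes, the T-box factor that specifies mesoderm and endoderm, was at 12.8 and 22.6 CPM against 3.01 and 5.93 CPM (2.06). Snai1, the repressor of E-cadherin, was at 17.3 and 30.6 CPM against 4.51 and 4.14 CPM (2.65). Lhx1, a LIM homeobox factor of the streak, reached 13.5 and 13.3 CPM against 1.05 and 3.46 CPM (2.52), but had no UMI in Type III. These 4 factors were higher in the streak barcodes of both tested libraries.

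Factors of the caudal and lateral embryo rose as well. Cdx2, a caudal homeobox gene that also marks trophectoderm, was at 45.1 and 68.3 CPM against 13.5 and 8.84 CPM (2.56), yet in Type III it was at 3.26 CPM in the streak barcodes and 16.2 CPM in the others. Hand1, a bHLH factor of extraembryonic and lateral mesoderm, was at 39.1 and 52.5 CPM against 6.32 and 4.57 CPM (3.26), and it too was lower in Type III, with no UMI in the streak barcodes against 52.5 CPM. For these genes Type III thus went the other way, with 5 barcodes. Id1, a target of BMP signalling, was at 442 and 516 CPM against 167 and 157 CPM (1.67), and at 531 against 105 CPM in Type III. Sp8, Sall3, Twist1, Cdx4 and Foxh1 also rose, by log2 fold changes of 2.88, 2.97, 1.497, 3.33 and 1.696. Twist1 had a log2 fold change of only 0.51 in Type I taken alone, against 1.85 in Type II.

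Foxa2, a forkhead factor of endoderm and the anterior streak, fell by 2.13 on the log2 scale, against others that were not held to the endoderm limits. Otx2, which marks anterior and primed epiblast, fell by 2.57, to 4.51 and 2.16 CPM. Tbx3, a T-box factor of naive cells and endoderm, fell by 1.52. Zic2 and Foxc1 were among those not called, with log2 fold changes of -0.06 and 1.64. The 10 factors too low to test, among them Mesp2, Snai2, Gsc, Foxc2, Foxf1, Nkx1-2 and Hes3, stood at 0 to 7.11 CPM in the streak barcodes.

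Genes of Wnt signalling moved in both directions. Of 15 tested ligands and receptors 5 rose and 3 fell (median 0.40). Wnt5a, the ligand of the non-canonical pathway that guides streak cell movement, was at 73.6 and 63.9 CPM in the streak barcodes of Types I and II against 6.92 and 2.91 CPM in the others, a log2 fold change of 4.07 (0.23; adjusted p = 7.31e-14, edgeR quasi-likelihood). Wnt5a had a UMI in 62 of 133 streak barcodes, with maxima of 390 and 509 CPM in Types I and II. Wnt5b stood at 40.6 and 34.3 against 3.31 and 3.46 CPM (3.51) and Wnt3, the ligand that starts the streak, at 18.03 and 30.6 against 3.01 and 1.79 CPM (3.61). The receptors Fzd10 (39.1 and 28.1 against 5.11 and 3.52 CPM; 3.06) and Ror2 (1.48) rose as well. Wnt6, Wnt11 and Rspo1 fell, the former pair by log2 fold changes of -1.65 and -2.37 and Rspo1 to 2 UMIs, from levels of at most 15.3 CPM in the others.

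Among 16 tested Wnt targets and inhibitors 8 rose, 2 fell and 6 were not called, with a median log2 fold change of 1.00. Axin2, a negative regulator that the pathway itself induces, was at 64.6 and 46.03 against 29.6 and 20.3 CPM (1.25). Lef1, a transcription factor that binds with beta-catenin, was at 39.8 and 47.9 against 7.82 and 10.4 CPM (2.34). Ccnd2, a cyclin, was at 216 and 219 against 68.9 and 51.4 CPM (1.98), and at 349 against 56.4 CPM in Type III. All 3 genes were higher in the streak barcodes of both tested libraries. Secreted inhibitors went opposite ways. Sfrp1 was at 39.1 and 65.8 against 3.46 and 3.28 CPM (4.13), and Dkk1 was at 1.502 and 5.56 against 41.7 and 57.4 CPM (-3.53). The others, unlike the streak barcodes, were not held to the endoderm limits, whose part in the fall of Dkk1 was not tested. Against primed and naive epiblast-like barcodes, described below and held to those limits, 3 of 13 and 0 of 17 tested genes of this list were called lower.

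Sp5 is a zinc finger factor that lies downstream of Wnt signalling in the streak. It stood at 41.3 and 37.7 against 10.8 and 16.01 CPM, a log2 fold change of 1.597 (0.22). Its promoter is shown because it was the only one of 530 promoters of genes that rose to hold 4 matches to the letters CTTTGA or CTTTGT, the core that Tcf and Lef factors bind. The sequence is the 250 bases before its start in RefSeq on GRCm38.p6, chr2:70474673-70474922, plus strand, with matches on either strand in capitals.
Sp5: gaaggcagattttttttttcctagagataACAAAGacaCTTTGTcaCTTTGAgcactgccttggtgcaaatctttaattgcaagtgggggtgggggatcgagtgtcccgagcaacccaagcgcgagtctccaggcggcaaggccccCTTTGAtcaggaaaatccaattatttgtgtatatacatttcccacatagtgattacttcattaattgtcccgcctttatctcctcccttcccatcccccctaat
This window held 4 matches, at 104 to 221 bases before the start, and 0.0944% of the 32851 promoters in the table held 4 or more. That many were found in 0.189% of the 530 promoters of genes that rose (1 promoter) and in 0.209% of the 956 of genes that fell (2 promoters). At least 1 match was found in 27.6% of all promoters, in 26.0% of those of genes that rose and in 28.1% of those of genes that fell. A match describes these letters and is not a binding site.

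Of 10 tested FGF ligands and receptors 2 rose and 5 fell (median -0.94), and Fgfr1 was the receptor that rose. Fgfr1, the receptor that streak cells use for Fgf8, was at 57.8 and 62.7 against 17.7 and 23.6 CPM (1.62). Fgfr2, Fgfr3 and Fgfr4 fell, by log2 fold changes of -2.34 and -2.96 for the former pair, and Fgfr4 to a single UMI. Fgf17, a ligand close to Fgf8 in sequence, was called on the strength of Type II, with 18.2 CPM against 2.53 CPM there and 0.751 against 2.26 CPM in Type I. Fgf4, made by naive epiblast, fell (-1.38). Of 14 targets and feedback genes 4 rose and 1 fell (median 0.36). Dusp6, the phosphatase that limits ERK, was at 78.1 and 66.4 against 12.2 and 18.2 CPM (2.28) and at 245 against 30.5 CPM in Type III. Etv1, Il17rd and Dusp4 rose with it (2.65, 1.64 and 1.42). Spry1, Spry2, Spry4, Etv4 and Etv5 were not called.

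The Nodal and BMP list had 12 of 23 tested genes called higher and 1 lower (median 1.21). Bmp4, the ligand that helps to start the streak, stood at 99.9 and 123 CPM in the streak barcodes of Types I and II against 15.3 and 14.96 CPM, and at 147 against 26.6 CPM in Type III. Its log2 fold change over Types I and II was 2.998 (0.15; adjusted p = 5.68e-15, edgeR quasi-likelihood), and 80 of 133 streak barcodes held a UMI. It was higher in the streak barcodes of all 3 libraries. Msx1, a homeobox target of BMP signalling, was at 90.9 and 125 against 16.8 and 7.48 CPM (3.44). Id3 (1.64) and Bambi (1.55), other targets, also rose, as did the BMP antagonist Nog (2.73) from under 1.24 CPM, while Bmp2 fell (-2.04).

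Nodal, the TGF-beta ligand that patterns the streak, stood at 54.8 and 64.9 against 17.1 and 30.5 CPM (1.396). Its feedback inhibitors Lefty1 and Lefty2 were higher, in few barcodes. Lefty1 was at 15.8 and 47.6 against 0.602 and 1.55 CPM (4.97), but its UMIs came from 16 of 133 streak barcodes, of which the highest held 1681 CPM, and in Type III the others were higher. Lefty2 was at 32.3 and 24.7 against 0.301 and 1.98 CPM (4.396), in 28 barcodes. Tdgf1, the Nodal co-receptor, was not called, at 173 and 102 against 72.2 and 119 CPM, and its direction differed between Types I and II.

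Of 8 tested Notch and presomitic genes 5 rose and 1 fell (median 2.04). Hes1, a bHLH repressor, was at 587 and 570.3 against 139 and 104 CPM (2.37, standard error 0.10), and at 473 against 173 CPM in Type III. Dll3, a Notch ligand (3.57), and Nrarp, a feedback inhibitor (2.85), rose from at most 3.46 CPM in the others. Hes7, the clock gene of the presomitic mesoderm, was at 5.26 and 12.4 CPM against 0.1504 and 0.247 CPM. Rbpj, the DNA-binding partner of Notch, fell (-1.09). Of 11 tested retinoid and posterior genes 3 rose and none fell. Hoxb1 (2.25 and 12.05 against 0.301 and 0.185 CPM) and Hoxb2 (2.25 and 11.1 against 1.35 and 0.556 CPM), the earliest Hox genes of the streak, stood mainly on Type II, and Gbx2 rose from under 1 CPM.

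Genes of epithelial-mesenchymal transition moved in both directions, 11 of 28 tested higher and 8 lower (median 0.09). Vim, the mesenchymal filament protein, was at 328 and 353 CPM against 65.1 and 48.8 CPM (2.71), and at 326 against 31.1 CPM in Type III. Cdh2, N-cadherin, was at 34.5 and 69.8 against 5.57 and 5.62 CPM (3.38). Fn1, fibronectin, was at 228 and 362 against 129 and 117 CPM (1.36), though at 61.9 against 96.6 CPM in Type III. Zeb1, Zeb2, Mmp2 and Has2 also rose, by log2 fold changes of 2.75, 1.72, 2.63 and 2.06. Cdh1, E-cadherin, missed the 2-fold limit, at 62.3 and 62.4 against 136 and 130.2 CPM (-0.99). The tight junction genes Cldn6 (-2.49) and Cldn7 (-1.77) fell, as did the basement membrane genes Col4a1 (-4.99) and Lama1 (-4.39), which the endoderm makes in quantity.

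Of 26 genes of later mesoderm only 11 were abundant enough to test, and 6 of these rose and 2 fell. Isl1, of cardiac and lateral mesoderm, was at 18.8 and 23.5 against 4.06 and 1.67 CPM (3.22), and Lmo2, of blood and endothelium, at 21.03 and 17.3 against 3.91 and 2.35 CPM (2.78). Pdgfra, a mesoderm and endoderm receptor, fell (-4.07), to 3.004 and 3.09 CPM, again against others that were not held to the endoderm limits. Kdr, Tal1, Nkx2-5, Meox1, Tbx1 and Gata1 stood under 1 CPM in the summed streak barcodes, and the embryonic globin gene Hbb-bh1 had no UMI there. Foxj1, Noto, Chrd, Shh, Cer1 and Gsc of the node and anterior endoderm stood at or under 1.55 CPM. Foxf1 of lateral mesoderm and Pax3 of somites, also too low to test, reached 7.11 and 3.40 CPM in Type II. Of the 13 genes of the node and definitive endoderm 4 were tested, of which 1 rose and 2 fell. The untested genes named here thus stood at 7.11 CPM or less.

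Among 8 tested germ cell genes 5 rose and 1 fell. Dnd1, an RNA-binding protein of primordial germ cells, was at 61.6 and 30.3 against 3.16 and 4.94 CPM (3.34), and Prdm1, a repressor needed for germ cell fate, at 12.02 and 12.05 against 0.902 and 2.35 CPM (2.84). Nanos3 rose from lower levels (2.095), while Dppa3 fell (-2.63). The other 2 that rose, Ifitm1 and Ifitm3, are also interferon-inducible and appear among those genes below. Dnd1 overlaps Wdr55 on the opposite strand.

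Pluripotency genes separated by state. Of 19 tested naive genes 16 fell, 1 rose and 2 were not called (median -1.997). Tdh, a threonine-catabolising enzyme of naive stem cells, fell to 3.76 and 6.49 CPM from 130.4 and 159.8 CPM (-4.65). Klf2 (-2.61) and Zfp42 (-2.104), naive transcription factors, and Sox2 (-1.67) fell too. Pou5f1 (Oct4), which streak cells of the embryo still express, was not called, at 149 and 98.5 CPM against 133 and 136 CPM, and 107 of 133 streak barcodes held a UMI of it. Nanog was not called either (-0.702). Primed genes went both ways, 5 higher and 5 lower of 21. Fst, an activin antagonist, rose (150.2 and 78.2 against 7.97 and 17.00 CPM; 3.08) and Sox11 rose (1.405), while Utf1 (-1.54) and Car4 (-3.24) fell.

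Many endoderm and trophectoderm genes fell against the mixed others. All 21 tested endoderm genes fell (median -4.77), which is in part set by the limits on 7 other endoderm genes in the rule. Amn, part of the apical uptake receptor of the visceral endoderm, stood at 6.01 and 5.56 CPM against 263 and 299.6 CPM, and its partner Cubn at 6.76 and 8.34 against 304 and 341 CPM. Of 20 tested trophectoderm genes 12 fell, 3 rose and 5 were not called (median -1.47). Krt8 was at 168 and 171 against 487 and 573 CPM (-1.56) and Gata2 at 2.25 and 4.63 against 50.8 and 28.1 CPM (-3.06). The 3 that rose were Cdx2, Hand1 and Lgals3 (2.67), and the first 2 are also mesoderm genes. Primed and naive epiblast-like barcodes, described below, were held to the same endoderm limits as the streak barcodes. Against them 1 of 13 and 1 of 16 tested endoderm genes fell, and 2 and 2 rose (medians 0.32 and 0.05). Cited1 rose in both comparisons (2.78 and 2.63), and Col4a1 was not called in either (0.36 and 0.29).

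**Figure D2:**
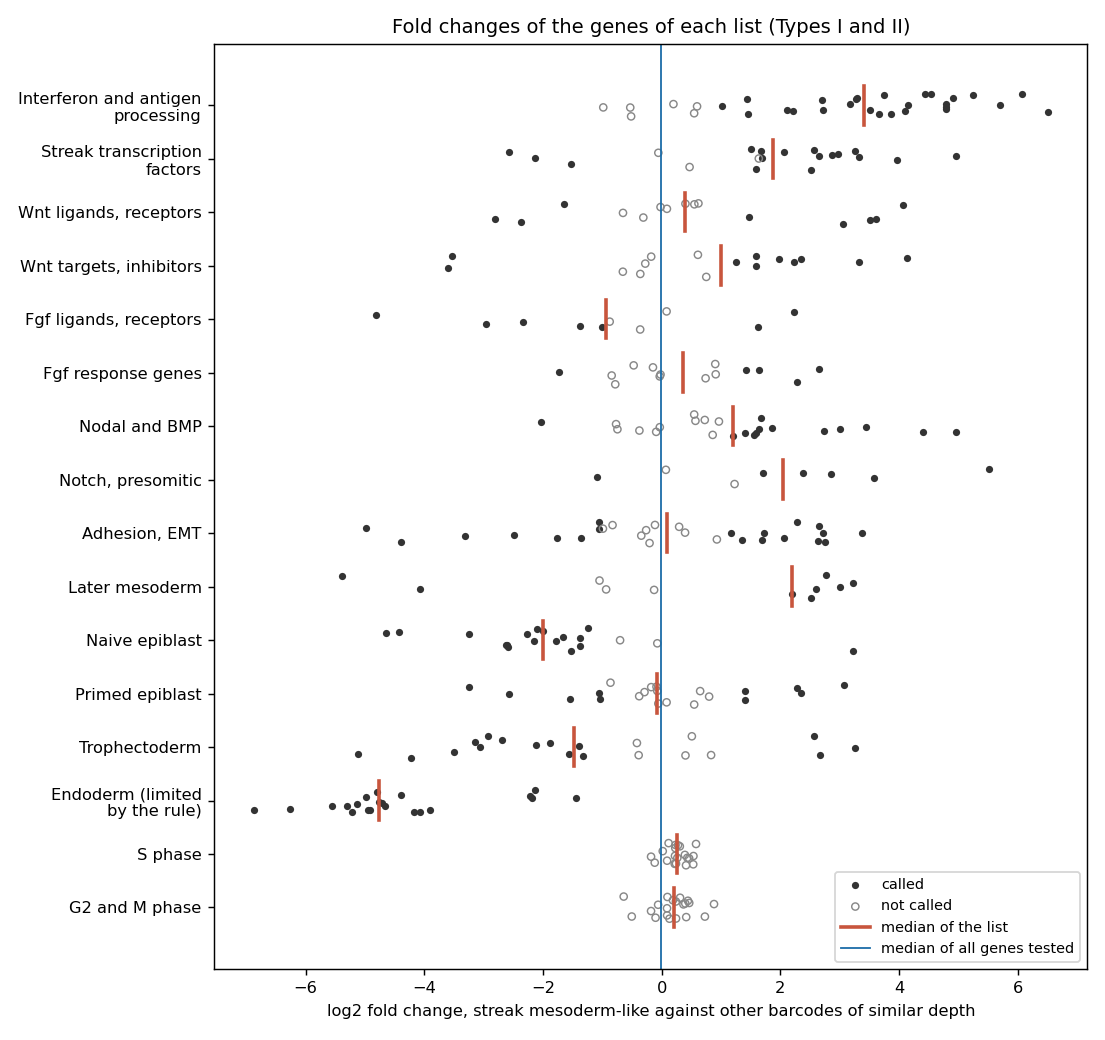
Log2 fold change of streak barcodes over matched others, summed over Types I and II, for the tested genes of 16 lists. Filled points were called, open points were not, red bars are list medians and the blue line is the median of all genes tested (-0.01). The interferon and antigen list has the highest median (3.41) and the endoderm list the lowest (-4.77); the highest interferon point, Ifit1, rests on 1 UMI in the others.

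Cell cycle genes moved little. None of 20 S-phase and none of 20 G2/M genes was called by edgeR or by DESeq2. In edgeR 7 and 7 had an adjusted p under 0.05 and missed only the 2-fold limit, the S-phase genes all higher and the G2/M genes in both directions. An unadjusted p under 0.05 was found for 7 and 10 in edgeR and for 5 and 4 in DESeq2. The median log2 fold changes of the S-phase and G2/M lists were 0.25 and 0.21, with ranges of -0.18 to 0.58 and -0.64 to 0.88. Of 19 tested glycolysis and hypoxia genes 1 rose and 1 fell, the latter being Slc2a3, the neuronal-type glucose transporter (-1.31). Immediate early genes, which respond to dissociation, had 1 higher (Junb, 1.65) and 2 lower of 18. Of 23 imprinted genes 3 rose and 6 fell. Peg3, a zinc finger gene, was at 883 and 1012 against 456 and 397 CPM (1.25), while the noncoding H19 was at 55.6 and 66.7 against 991 and 824 CPM (-3.74).

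Of the lists tested, that of interferon-inducible and antigen-processing genes had the highest median. Interferons act through receptors at the cell surface to induce antiviral proteins such as Isg15 and Oasl2, GTPases such as Gbp2, and the immunoproteasome subunits Psmb8, Psmb9 and Psmb10, which replace the constitutive ones and trim peptides for MHC class I. Of 36 genes on the list 32 were tested, and 26 rose, none fell and 6 were not called, with a median log2 fold change of 3.41. In each library taken alone, 26 (Type I) and 25 (Type II) of the 32 were at least 2-fold higher. The list was drawn up with earlier results of these data known, so its count is a description and not independent evidence of direction.

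Isg15, a ubiquitin-like protein (chr4:156199424-156200818, minus strand), stood at 229.8 and 175 CPM in the streak barcodes of Types I and II and at 189 CPM in those of Type III. The matched others held 2.56 and 4.698 CPM in Types I and II and 1.94 CPM in Type III. All 3 libraries thus had Isg15 far above the others in the streak barcodes, with a log2 fold change over Types I and II of 5.71 (0.19; adjusted p = 5.51e-19, edgeR quasi-likelihood). It was seen in 102 of 133 streak barcodes, or in 32.3% after thinning (exact 95% interval 24.5 to 41.0%). The thinned share was 0.602% in the others and 0 in 209 visceral endoderm-like barcodes, which allows up to 1.44%, and before thinning 1 of those 209 held a UMI.

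Psmb8 (chr17:34197721-34201454, plus strand, overlapping Gm20496 on the opposite strand) was at 152 and 196 CPM against 3.16 and 6.24 CPM in Types I and II and at 163 against 32.4 CPM in Type III. Its log2 fold change was 5.24 (0.17; adjusted p = 2.22e-19, edgeR quasi-likelihood), and it was seen in 106 of 133 streak barcodes and in 1.65% of the thinned others. The other immunoproteasome genes were higher as well. Psmb10 was at 349 and 445 against 26.8 and 35.97 CPM (3.75) and Psmb9 at 42.8 and 47.3 against 3.01 and 3.52 CPM (3.86). Of the subunits of the PA28 cap of the proteasome, Psme1 was at 592 and 536 against 92.6 and 91.7 CPM (2.704) and Psme2 at 466 and 457 against 54.3 and 55.1 CPM (3.17). Tap2 (4.79), Tap1 (2.11) and Tapbp (3.296), which load peptides, also rose.

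Of the MHC class I genes, H2-T23, a non-classical heavy chain, rose from under 1.1 CPM to 6.76 and 7.41 CPM, and the other 3 described here were not called against these others. B2m, the light chain, was at 59.3 and 67.97 against 140.0 and 133 CPM (-0.99, not called), H2-K1 at 36.8 and 59.6 against 36.5 and 53.5 CPM (0.198) and H2-D1 at 23.3 and 32.1 against 43.9 and 43.7 CPM (-0.52). Among the GTPases Gbp2b was at 112 and 80.3 against 2.56 and 4.02 CPM (4.79), Gbp2 at 66.8 and 93.6 against 2.41 and 3.65 CPM (4.799) and Gbp3 at 7.51 and 15.8 against 0 and 0.6799 CPM. Oasl2, an oligoadenylate synthetase-like protein, was at 41.3 and 34.6 against 0.451 and 0.618 CPM (6.07). These 4 genes were nearly absent from the others.

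Of the regulators, Irf1 was at 84.1 and 73.8 against 6.17 and 7.91 CPM (3.52). Stat2 (-0.53), Irf9 (0.596) and the RNA sensor Ddx58 (0.55) were not called. Irf7, Rsad2 and Nlrc5 were too low to test, at no more than 3.00 CPM in the streak barcodes, and Ifit3 stood at 9.01 and 0.618 CPM. The membrane proteins Ifitm1 (409 and 450.1 against 109 and 92.4 CPM; 2.204), Ifitm3 (2.72), Ifitm2 (1.44) and Bst2 (1.02) rose. Reads of the Ifitm genes may be split between them, since 10.9% of the windows at the transcript end of Ifitm1 and 15.2% at that of Ifitm3 occur in another gene.

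Promoters of 4 of these genes are shown because they hold the core of the interferon-stimulated response element, GAAA, any 2 bases and GAAA again, close to the start. Each is the 160 bases before the start in RefSeq on GRCm38.p6, written 5′ to 3′ along the gene, with matches on either strand in capitals.
Isg15 (chr4:156200819-156200978, minus strand): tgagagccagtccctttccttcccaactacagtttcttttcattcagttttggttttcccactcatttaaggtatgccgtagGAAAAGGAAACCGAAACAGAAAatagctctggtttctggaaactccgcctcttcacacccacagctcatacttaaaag
Gbp2 (chr3:142620503-142620662, plus strand): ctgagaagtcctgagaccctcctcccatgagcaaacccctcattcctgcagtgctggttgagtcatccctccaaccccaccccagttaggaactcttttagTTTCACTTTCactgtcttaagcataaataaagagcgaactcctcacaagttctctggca
Gbp3 (chr3:142559884-142560043, plus strand): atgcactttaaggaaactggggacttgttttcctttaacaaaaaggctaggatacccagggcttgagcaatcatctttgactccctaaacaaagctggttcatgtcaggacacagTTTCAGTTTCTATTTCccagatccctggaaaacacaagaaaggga
Ifit1 (chr19:34640729-34640888, plus strand): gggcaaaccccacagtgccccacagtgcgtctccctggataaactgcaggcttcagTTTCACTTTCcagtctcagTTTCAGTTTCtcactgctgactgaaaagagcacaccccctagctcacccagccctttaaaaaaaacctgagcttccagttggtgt
Isg15 held 3 overlapping matches at 66 to 78 bases before the start, Gbp3 2 overlapping matches at 39 to 45 bases, Ifit1 2 at 85 to 104 bases and Gbp2 1 at 59 bases. Within 250 bases before the start, this core was found on either strand in 2.98% of 32851 promoters, in 6.42% of 530 promoters of genes that rose and in 2.20% of 956 promoters of genes that fell. Among genes of the interferon list that rose, 22 had a promoter in the table and 8 of these (36.4%) held a match, namely Bst2, Gbp2, Gbp2b, Gbp3, H2-T23, Ifit1, Ifitm2 and Isg15. The others of the 22 held none in this window. A match is a description of these letters.

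Expression of the interferon group varied from barcode to barcode. Of the 111 streak barcodes with at least 10000 UMIs, 68 held UMIs of all of Isg15, Psmb8 and Gbp2b, and 5 held none. Their summed level of the listed genes ran from 1388 to 10705 CPM in Type I (median 4208), from 1275 to 8489 in Type II (median 4130) and from 2367 to 6119 in Type III (median 2550). At a limit of 200 CPM for those 3 genes together, chosen after the values were seen, 81 of the 111 streak barcodes (73.0%) and 67 other barcodes of that depth (1.88%) were above it. The share of streak barcodes was 71.4% in Type I and 72.5% in Type II, and all 3 in Type III. Of the 67 other barcodes, 39 held a UMI of T or Fgf8 and 28 held neither.

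Genes outside the lists were named by size. Among genes of at least 50 CPM in 1 class, the 10 highest log2 fold changes included Sprr2a3, Alox15, Tmem176a, Tmem176b, Pdgfrl and Igfbp3. Alox15, a lipoxygenase, was at 108 and 110.3 against 3.46 and 4.39 CPM in Types I and II (4.84) and at 156 against 12.3 CPM in Type III. Pdgfrl, a secreted protein that resembles a PDGF receptor, was at 177 and 156 against 7.82 and 9.27 CPM (4.33), and Igfbp3, which binds insulin-like growth factors, at 116 and 105 against 3.31 and 8.41 CPM (4.19). Each was higher in the streak barcodes of all 3 libraries. Sprr2a3 is uncertain, because 78.3% of the windows at its transcript end also occur in other genes of the Sprr2a family; it stood at 166 and 120.5 against 2.56 and 1.17 CPM. Tmem176a and Tmem176b overlap each other on opposite strands and rose together (4.16 and 4.42). The 5 lowest were the endoderm genes Lgals2, Amn, Col4a2 and Cubn and the receptor Flt1 (-6.27, -5.56, -5.31, -5.301 and -5.38).

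The matched others are a mixture of all cell types, so the streak barcodes were next set beside epiblast-like cells, the state from which a streak forms. Primed epiblast-like barcodes were those with a UMI each of Pou5f1 and Otx2, at least 300 CPM of Pou3f1, Otx2, Nodal and Fgf5 together, no UMI of T and the same filters and endoderm limits, within the UMI range of the streak barcodes. There were 29, 72 and 19 in Types I, II and III, and Types I and II were tested. Their median depth in Type I was 47213 UMIs, against 18806 in the streak barcodes. Over 9137 genes 12.4% were called, 6.11% as higher and 6.34% as lower in the streak barcodes. This comparison shares its streak barcodes with the one above and the one below.

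Of 23 tested genes of epithelial-mesenchymal transition 8 rose and 3 fell against primed barcodes (median 0.42), and of 20 tested Nodal and BMP genes 8 rose and 1 fell (median 0.77, against -0.00 for all genes tested). Vim stood at 18.4 and 21.1 CPM in the primed barcodes of Types I and II against 328 and 353 CPM (4.03). Cdh2 stood at 1.53 and 4.49 CPM against 34.5 and 69.8 CPM (3.97), while Cdh1 fell, to 62.3 and 62.4 from 158 and 164 CPM (-1.43). Both cadherins were thus called against primed barcodes, in opposite directions. Bmp4 (9.21 and 6.22 CPM in primed; 3.92), Msx1 (0 and 1.73 CPM; 6.47), Wnt5a (0.767 and 1.38 CPM; 5.69) and Cdx2 (2.302 and 2.07 CPM; 4.72) rose. Cyp26a1, not called against the others, rose here from 1.53 and 1.04 CPM (4.28). Mixl1 had no UMI in the primed barcodes of Types I and II, which makes it at least 13.2-fold higher at a floor of 3 counts over both libraries.

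Of 15 tested streak transcription factors 10 rose and 1 fell (median 2.11). Evx1 rose (2.63) and Sp5 rose (2.35), whereas Eomes (0.58) and Id1 (0.83) were not called. Zic2, a zinc finger factor of primed cells, fell (-2.06). Some genes called higher against the others had fitted changes near 0 here. Lef1 had a log2 fold change of -0.05 (0.19), Dusp4 of 0.01 (0.16), Fst of 0.200 (0.17) and Sox11 of 0.06 (0.14). None of these 4 was called.

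Pluripotency genes fell in the streak barcodes from their primed level. Of 16 tested primed genes 12 fell and none rose (median -2.02), and of 15 naive genes 11 fell and none rose (median -2.30). Utf1 stood at 50.3 and 44.2 against 317 and 388 CPM (-2.997), Tdgf1 at 173 and 102 against 415 and 542 CPM (-1.94) and Dppa5a at 595 and 556 against 2519 and 2936 CPM (-2.304). Sox2 (-2.75), Fgf4 (-3.77), Etv5 (-1.82) and the DNA methyltransferase Dnmt3b (-1.72) fell as well. Pou5f1, Otx2, Pou3f1, Nodal and Fgf5 chose the primed barcodes and were not tested, and a class picked for high primed genes can stand high in other primed genes too.

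Interferon and antigen genes were also higher than in primed barcodes, 21 of 30 tested, with none lower (median 2.04). Isg15 was at 2.302 and 2.76 CPM in the primed barcodes (6.11, standard error 0.25), and after thinning in 2.50% of 120 of them. Psmb8 was at 22.3 and 15.5 CPM (3.25) and Irf1 at 33.8 and 24.2 CPM (1.43). Both values lie between those of the mixed others and the streak barcodes. B2m, not called against the others, rose here from 27.6 and 27.98 to 59.3 and 67.97 CPM (1.15). Of 12 tested trophectoderm genes 5 rose against primed barcodes and 3 fell (median 0.62). Krt8 was at 168 and 171 against 78.3 and 36.6 CPM (1.65), Krt19, another keratin, at 64.6 and 67.04 against 20.7 and 2.76 CPM (2.87) and Lgals3, a galectin, at 74.4 and 76.3 against 1.53 and 4.14 CPM (4.44). The summed list stood at 687 and 761 CPM in the streak barcodes against 412 and 259 CPM in primed, and its part in the other differences was not tested. Bst2 stood at 629 and 563 CPM in primed barcodes and was not called (-0.24).

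Naive epiblast-like barcodes, the state nearest to the stem cells that the blastoids were made from, had a UMI each of Nanog and Zfp42, at least 300 CPM of Nanog, Zfp42, Klf2 and Esrrb together, under 300 CPM of the 4 primed genes, no T, and the same filters, endoderm limits and UMI range. There were 217, 252 and 81, with median depths of 50124 and 36437.5 UMIs in Types I and II. Over 11223 genes 19.7% were called, 10.1% as higher and 9.57% as lower in the streak barcodes. Scaling placed the median gene 0.17 lower on the log2 scale than library totals would, so changes here are relative to that shift.

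Dppa5a, a naive RNA-binding protein, fell to 595 and 556 CPM from 4444 and 4527 CPM in the naive barcodes of Types I and II (-3.14). Pou5f1 fell to 149 and 98.5 from 427 and 391 CPM (-1.94), Sox2 to 20.3 and 15.8 from 224 and 252 CPM (-3.97) and Tdh to 3.76 and 6.49 from 298 and 371 CPM (-6.11). Of 16 tested naive genes 15 fell and 1, Gbx2, was higher. Nanog, Zfp42, Klf2 and Esrrb chose the naive barcodes and were not tested. A class picked for high naive genes can stand high in other naive genes too. Bmp4 was already present in naive barcodes, at 24.1 and 30.8 CPM, and rose from there (1.85). Vim (9.84 and 14.1 CPM in naive; 4.67), Cdh2 (1.31 and 1.41 CPM; 5.05), Ccnd2 (9.64 and 9.13 CPM; 4.36) and Fst (3.82 and 7.73 CPM; 4.08) rose from lower levels.

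Peg3, the imprinted zinc finger gene, was lowest in naive and highest in streak barcodes. It stood at 48.6 and 50.00 CPM in naive, at 144 and 127 CPM in primed and at 883 and 1012 CPM in streak barcodes of Types I and II (4.09 against naive, 2.76 against primed). Of 23 imprinted genes 12 were higher and 2 lower than in naive barcodes (median 1.03). Of 18 trophectoderm genes 7 were higher and 5 lower (median -0.56), among them Krt8, at 32.9 and 30.2 CPM in naive barcodes (2.26), and Krt19, at 2.61 and 3.86 CPM (4.17). The interferon list had 27 of 32 higher and none lower (median 3.48), and the MHC heavy chains H2-K1 (9.74 and 10.7 CPM in naive; 2.08) and H2-D1 (5.12 and 7.14 CPM; 2.003) were called here. Ifitm2 was not, at 405 and 433 CPM in naive barcodes (-0.07). Ifit1 and Hoxb1 had no UMI in the naive barcodes of Types I and II, which makes them at least 32.4-fold and at least 56.7-fold higher at a floor of 3 counts over both libraries, and list medians were the same with such genes at that bound.

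**Figure D3:**
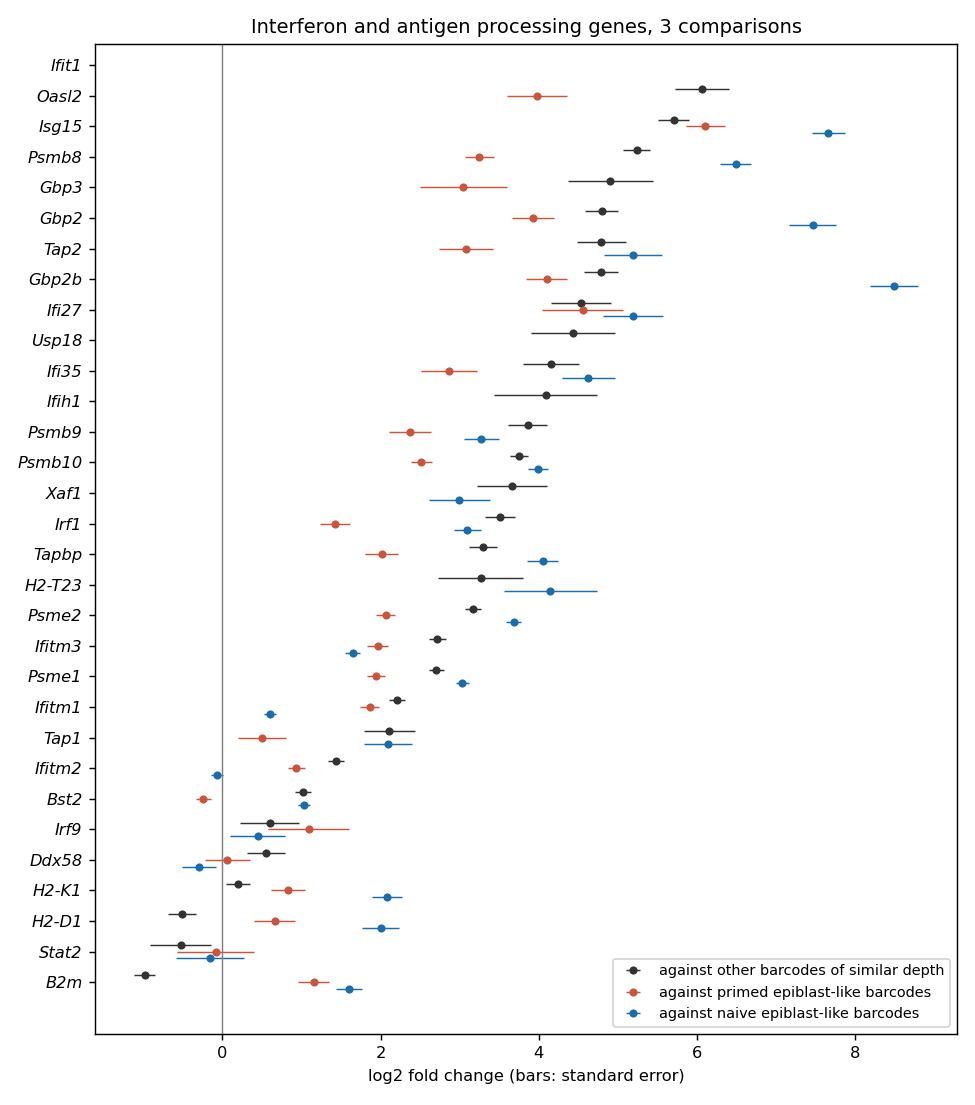
Log2 fold change with its standard error (bars) of interferon and antigen genes in streak barcodes of Types I and II, against matched others (black), primed (red) and naive epiblast-like barcodes (blue). Values that rest on 3 or fewer UMIs in the compared barcodes are left out, which removes Ifit1 altogether. Isg15 lies between 5.71 and 7.67 in the 3 comparisons, whereas B2m lies at -0.99 against the others and above 0 against primed (1.15) and naive barcodes (1.595).

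Streak barcodes differed among themselves in their cadherins. The 111 with at least 10000 UMIs were divided, after the values were seen and with no test, by which cadherin had a UMI. Both were found in 45, Cdh1 alone in 24, Cdh2 alone in 28 and neither in 14, with median totals in Types I and II of 46605, 52866, 37720.5 and 15895.5 UMIs. In the Cdh1-only barcodes of Types I and II (9 and 15 barcodes) Pou5f1 stood at 219 and 139 CPM, against 97.5 and 30.5 CPM in the Cdh2-only barcodes (6 and 22). Epcam, an epithelial adhesion protein, was at 293 and 279 against 137 and 67.1 CPM, and Cldn6 at 63.4 and 59.4 against 26.6 and 4.88 CPM. Dppa5a was at 935 and 523 against 425 and 195 CPM. These 4 genes were thus higher beside Cdh1 in both libraries, but the keratin gene Krt8 was not, at 184 and 172 against 106 and 215 CPM. The polarity gene Crb2 was lower in Type II, at 1.52 against 24.4 CPM (1 and 20 UMIs). In Type I it was near equal, at 4.09 against 4.43 CPM (2 and 1 UMIs). The summed naive list stood at 1402 and 879 against 731 and 385 CPM.

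Some mesenchymal genes were higher beside Cdh2. Vim was at 434 and 468 CPM in the Cdh2-only and 172 and 136 CPM in the Cdh1-only barcodes. Fn1 was at 412 and 559.8 against 92.1 and 113 CPM, Wnt5a at 155 and 143 against 36.8 and 28.9 CPM and Rspo3, a gene of the rule, at 385 and 391 against 137 and 222 CPM. Zeb2 was not higher in both libraries, at 13.3 and 31.7 against 14.3 and 15.2 CPM. T did not follow, at 284 and 169.5 CPM in the Cdh2-only against 274 and 325 CPM in the Cdh1-only barcodes of Types I and II. The summed interferon list was higher beside Cdh2, at 6287 and 4867 against 4215 and 3463 CPM, but Isg15 alone went opposite ways, at 589 and 91.5 against 229 and 209 CPM. Hand1 did so too, at 8.86 and 97.6 against 26.6 and 0 CPM. The summed G2/M genes were lower beside Cdh2, at 1090 and 1607 against 1975 and 2169.7 CPM, and their part in these differences was not tested. In Type I the Cdh2-only values rest on 6 barcodes, and Cdh1-only barcodes were deeper in both libraries.

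**Figure D4:**
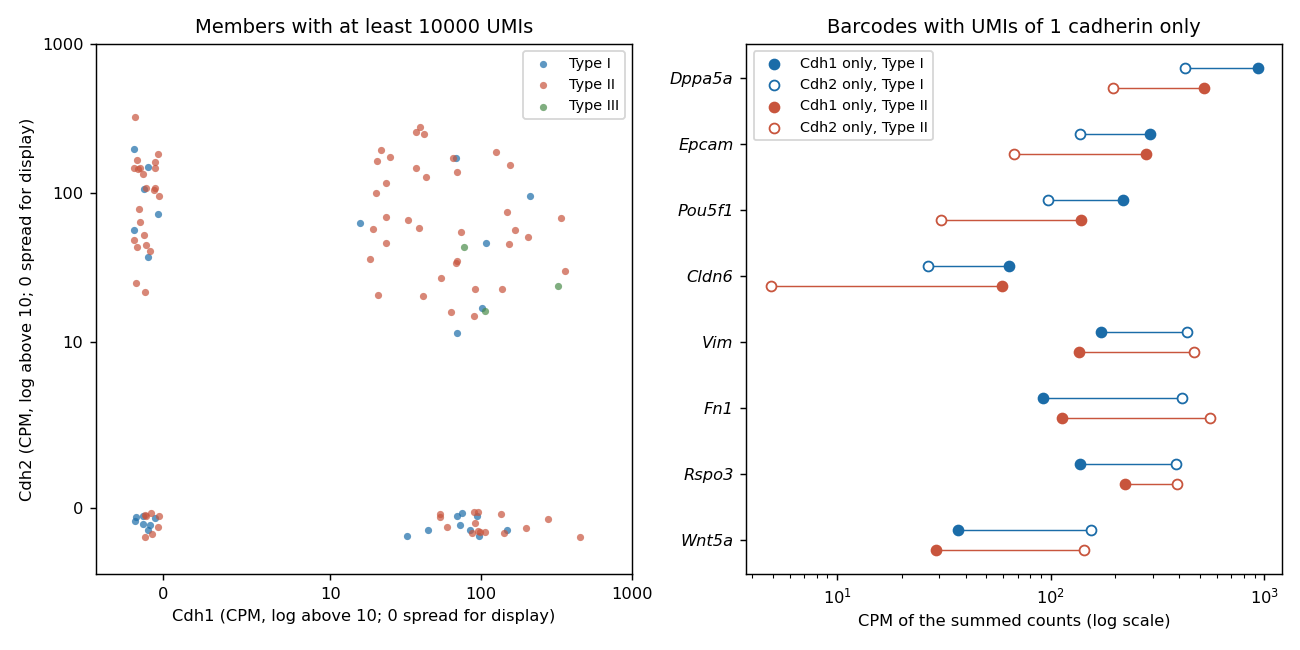
Left, Cdh1 against Cdh2 in CPM for the streak barcodes with at least 10000 UMIs. Right, summed CPM of 8 genes in Cdh1-only and Cdh2-only barcodes, joined by a line for each of Types I and II; Pou5f1, Epcam and Cldn6 are higher in Cdh1-only barcodes and Vim, Fn1, Wnt5a and Rspo3 in Cdh2-only barcodes of both libraries.

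Other pairs of genes overlapped in part. In the same 111 barcodes 42 held both Mesp1 and Rspo3, 2 Mesp1 alone, 48 Rspo3 alone and 19 neither. Mesp1 and Rspo3 are both part of the sum that chose the barcodes, so this overlap is a description. Pou5f1 was seen without Nanog in 58, with it in 35, and Nanog alone in 2. Hand1 was seen with Bmp4 in 34 and without it in 2, while Bmp4 was seen without Hand1 in 43. Rspo3, Pou5f1 and Bmp4 were seen in more barcodes than their partners, and a gene with few UMIs is missed more often.

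Streak barcodes with a UMI of Mesp1 were compared with those without, 11 against 27 in Type I and 33 against 57 in Type II. The Mesp1 barcodes of Type I were deeper, with a median of 53747 against 17656 UMIs, and those of Type II less so, with 40311 against 36762. Over 7349 genes 0.231% were called, 0.191% (14 genes) as higher with Mesp1 and 0.0408% (3) as lower. Bmp4 was at 193 and 172 CPM with Mesp1 against 38.6 and 89.2 CPM without in Types I and II (1.43), and Hand1 at 66.3 and 106 against 21.2 and 15.7 CPM (2.35). Sfrp1 (1.73), Lgals3 (1.24) and the peptide hormone gene Sct (2.04) were also higher. Lefty1, the Nodal inhibitor, had 1 UMI in the Mesp1 barcodes against 20 in the rest in Type I, and 1 against 153 in Type II. Dnd1 stood at 32.2 and 6.06 against 80.9 and 46.9 CPM (-2.03). Bmp4 and Hand1 were thus higher, and Lefty1 and Dnd1 lower, with Mesp1 in both libraries, though few streak barcodes held Lefty1, as given above. Of 20 G2/M genes 1, Ube2c, was called higher, and 11 had an unadjusted p under 0.05 in edgeR, all of them higher with Mesp1. Their summed level was 2856 against 1613 CPM in Type I and 1989 against 1628 CPM in Type II, and their part in these differences was not tested.

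The Mesp1 calls changed with the setting. DESeq2 called none higher and 1 lower, with 54 of 7349 genes at an unadjusted p under 0.05, against 447 in edgeR. The edgeR test over all 3 libraries called none, with 150 of 5776 genes at an unadjusted p under 0.05. Leaving out the deepest 5% of passing barcodes changed this split only in Type I. There 10 of the 11 Mesp1 barcodes remained, with 409486 of their 527666 UMIs. At that setting 4 genes were called higher, of which 3 were among the 14, and Bmp4, Sfrp1, Lgals3 and Dnd1 lost their calls. None of 26 tested interferon genes was called between Mesp1 barcodes and the rest by either tool, with 2 at an unadjusted p under 0.05 in edgeR and 0 in DESeq2. Their log2 fold changes ran from -0.34 to 1.03, with a median of 0.21 against 0.01 for all genes tested.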

How the data were processed

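Single cells of the 3 blastoid types were sequenced as 10x Genomics 3′ libraries. The deposited UMI counts per gene and barcode were made by the authors on mm10, per the submitters' processing notes, and the file headers name Cell Ranger 6.0.1; strand use and other settings are not given in the sources used here. Types came from the titles in the labels. Totals were 25443474 to 106445641 UMIs per library.

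Barcodes under 3000 UMIs or over 20% mitochondrial UMIs were left out, and CPM was computed from the counts. The members and gene lists were chosen with earlier results of these data known. UMIs were summed per class and library. Types I and II were compared with edgeR 4.0.16 (R 4.3.3, filterByExpr, TMM scaling, quasi-likelihood fit, library as a block, Benjamini-Hochberg adjustment), leaving out the genes that chose either class. Only 1 residual degree of freedom remained, and the spread was shared over genes. On simulated counts from each of the 4 comparisons, 85 to 89% of genes changed 4-fold were called, with 0 to 3 false calls. Of genes changed 1.5-fold 2 to 3% were called, a share held down by the 2-fold limit of a call. The simulation gave all genes of a comparison the same spread and both libraries the same relative gene levels. Its false calls therefore cannot show how many the data hold. Intervals are exact binomial and cover counting error only. Thinning drew 3000 UMIs per barcode.

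Genes were named by a rule: every streak transcription factor; the 10 highest and 5 lowest called genes of at least 50 CPM in a class; and up to 4 per list with the largest change at 20 CPM or more, leaving out mitochondrial, ribosomal, sex-linked and unnamed genes. Other names were chosen after their values were seen. A few genes of the lists that the rule would name are not reported here. Of the listed genes Cyr61 and Dux were not among the measured symbols and Aldoa named more than 1 gene. Shared transcript ends were taken from windows of the annotated transcripts (GENCODE M21). Alternatives were DESeq2 1.42.0, no block, other UMI, mitochondrial and marker limits, no low-count filter, leaving out deep barcodes or a library, and, chosen after seeing the data, all 3 libraries. Promoters came from RefSeq (GRCm38.p6) by symbol. Scripts used Python 3.11.15 with pandas 2.3.3 and scipy 1.17.1.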

Additional observations from a re-analysis of the deposited data

How the results depend on the processing

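Counts against the matched others, 738 genes higher and 1236 lower, were 428 and 600 with DESeq2, of which 423 and 595 were shared with edgeR. Against primed barcodes, 558 and 579 became 198 and 181 with DESeq2 and 367 and 373 over all 3 libraries. Against naive barcodes, 1136 and 1074 became 612 and 439 with DESeq2. Without the replicate block (library as a term) the counts were 756 and 1248, 521 and 536, and 1160 and 1084. Of the Mesp1 comparison's 14 genes higher and 3 lower, DESeq2 called 0 and 1 and the test over all 3 libraries 0 and 0. The counts were 35 and 15 with at least 2 UMIs of T and Fgf8, 22 and 8 at a mitochondrial limit of 10%, 34 and 14 with no low-count filter, and 4 and 2 without the replicate block. At a floor of 10000 UMIs 17 were higher and 5 lower, and 4 were higher without the deepest barcodes, 3 of them among the 14. That last setting kept 10 of the 11 Mesp1 barcodes of Type I and left the rest of the split unchanged. The cause was not tested.

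Leaving out a library leaves no residual degrees of freedom, so only the size could be read. Of the called genes, 606 to 653 higher and 1062 to 1187 lower ones kept a 2-fold change in the remaining library against the others. The ranges were 441 to 508 and 433 to 524 against primed, 917 to 1027 and 930 to 1037 against naive, and 11 to 12 and 3 for Mesp1. The share of streak barcodes in Type II was 4.02% at a floor of 10000 UMIs and 1.97% with at least 2 UMIs of both genes. Among the 336 values of genes named by the rule, no call reversed where a setting gave a value. With a library left out, 171 (without Type I) and 243 (without Type II) of them moved by more than 1 standard error. Genes named after their values were seen were not checked in this way. Of these, Fgf17, Irx3 and Etv2 had lower CPM than the others in Type I. For named genes, 31 of 336 values lost their call with DESeq2. Over all 3 libraries 298 kept their status, whether called or not called, 13 lost a call and 1 gained one. Leaving out the deepest barcodes changed no tested class of Type II. Without them 323 named values kept their status, 9 lost a call and 3 gained one. Those 9 were Bmp4, Dnd1, Hes5, Jun, Lgals3, Sfrp1, Slc38a4 and Ube2c in the Mesp1 comparison and Jun against primed barcodes, and the 3 were Foxc1 and Vegfa against the others and Mest against primed barcodes. Changes of 1.5-fold lie under the 2-fold limit of a call. The simulated counts therefore cannot show whether such changes were detectable with the 38 and 90 streak barcodes of the tested libraries.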

Other observations

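A few genes of other fates differed between the streak barcodes and the matched others. Of 6 tested neural ectoderm genes 4 were higher and 1 was lower (median log2 fold change 1.55, against -0.01 for all genes tested). Nes, which encodes the filament protein nestin, stood at 14.3 and 16.99 CPM in Types I and II against 8.27 and 6.24 CPM (1.29). Sox3, a SoxB1 factor of epiblast and neural plate, was at 14.3 and 2.78 against 1.203 and 1.42 CPM (2.29), mainly in Type I, and the homeobox gene Irx3 at 3.004 and 15.1 against 3.46 and 2.84 CPM (1.81), in Type II alone. Sox2 was the gene that fell. Of 5 tested blood and endothelial genes 2 were higher and 2 lower. Runx1, a factor of blood formation, was at 1.502 and 2.78 against 27.4 and 25.96 CPM (-3.37), and Etv2, which starts the blood and endothelial programme, at 2.25 and 11.4 against 2.41 and 1.48 CPM (2.19), higher in Type II alone. None of 12 genes of the 2-cell-like state was abundant enough to test.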
